A study of Homo sapiens with 36 samples.

Results

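The genes described here build cholesterol and long-chain fatty acids, or sense and control that synthesis, in PCa cells. They were chosen by name from a list of 29 genes, of which 28 were among the 27852 genes of the deposited table. ACACA was not analysed here. The 28 genes comprise 7 of the mevalonate steps (ACAT2, HMGCS1, MVK, PMVK, MVD, IDI1 and FDPS), 11 of the squalene and sterol steps (FDFT1, SQLE, LSS, CYP51A1, TM7SF2, MSMO1, NSDHL, HSD17B7, EBP, SC5D and DHCR7), 4 regulators and sterol carriers (INSIG1, SREBF1, SREBF2 and STARD4) and 6 of the fatty acid steps (ACLY, FASN, ELOVL6, SCD, FADS1 and FADS2). Together they held between 0.226% and 0.493% of the values of a library.

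RNA-seq covered 36 cultures of 4 human PCa lines, and asked how PCa cells of an osteoblastic and an osteolytic kind respond to bone cells. C4-2 and C4-2B are the osteoblastic lines (BPCa), and C4-2B was itself derived from C4-2. DU145 and 22Rv1 are the osteolytic lines (LPCa). Every culture was harvested on day 5. Each line was grown as a mono-culture (n = 3), as a co-culture with MG63 cells (n = 2), as a mono-culture with 50 ng/mL RANKL (n = 2), and as a co-culture with RAW264.7 cells and 50 ng/mL RANKL (n = 2). MG63, from a human osteosarcoma, stood in for OBs, RAW264.7 is a mouse macrophage line, and RANKL is the cytokine that turns such macrophages into OCs. Partner cells shared the medium of the PCa cells through a filter with 0.6 µm pores. Each phenotype thus rests on 2 lines, and the sample labels do not say whether replicates were started separately, so that p-values measure the spread between these samples, which may be technical.

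Cells make cholesterol from acetyl-CoA through mevalonate, squalene and lanosterol, and fatty acids from the same acetyl-CoA, which ACLY releases from citrate. When sterols in the endoplasmic reticulum run low, the transcription factors SREBP-2 (gene SREBF2) and SREBP-1 (gene SREBF1) are cut free and switch on the genes of both routes. INSIG1 holds them back while sterols are plentiful and is itself a target of the same factors. PCa cells are known for a high output of both lipids, and androgen signalling raises it.

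Levels are given in TPM, that is per 1000000 and corrected for transcript length, so that genes can be compared with each other. Differences are log2 fold changes ± SE from edgeR's quasi-likelihood test, and a gene is said to have risen or fallen when its Benjamini-Hochberg adjusted p over all genes tested was under 0.05. All 28 genes passed the minimum of 100 counts in every fit. Totals were between 23932472 and 36719047 in the 12 mono-cultures without RANKL and between 9593426 and 15418211 in the other 24 libraries. Depth therefore went with every comparison against mono-cultures without RANKL, and its part in those results cannot be told apart from that of the culture. The RANKL mono-cultures, with totals of 10097501 to 13373083 against 10418452 to 15397563 in the MG63 co-cultures, were used as a second control.

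KRT8 and KRT18, keratins of epithelial cells, were at 214 TPM or more and 233 TPM or more in all 36 libraries. Of 9 osteoblast and stroma markers, POSTN was at or under 3 counts in 35 libraries and THY1 in 34, and COL1A1 did not exceed 6.68 TPM. The summed level of the 9 markers lay between 2.48 and 7.59 TPM in C4-2, C4-2B and DU145 in any culture. In 22Rv1 it was 34.8 to 37.2 TPM in mono-culture and 51.2 to 53.1 TPM with MG63 cells, most of it TWIST1 (27.3 to 30.4 and 40.6 to 43.7 TPM), and its part in the changes of 22Rv1 was not tested. TYROBP, a macrophage marker, was at 0 in all 36 libraries, and the summed level of 5 macrophage genes lay between 17.9 and 71.8 TPM in those 3 lines and between 7.57 and 11.1 TPM in 22Rv1. Of the prostate markers, HOXB13 did not exceed 1.05 TPM and KLK2 3.88 TPM in DU145. EPCAM was at 14.5 to 21.6 TPM in DU145 mono-cultures, 12.0 and 20.5 TPM with MG63 cells, 84.5 and 89.9 TPM with RANKL, and 79.4 and 86.1 TPM with RAW264.7 cells and RANKL. MG63 cells are human like the PCa lines, so that any of their RNA would not differ in species, and the libraries are labelled as PCa cells. RAW264.7 cells are of mouse and the values are of human transcripts, so that the macrophage genes say little about RNA of those cells. In bulk RNA, fewer cells of a type and less RNA per cell cannot be told apart.

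Replicate 2 of DU145 with MG63 cells stood apart from the other DU145 libraries. In it PMVK was at 231 TPM against 56.0 TPM in replicate 1, EBP at 163 against 56.8, MVD at 169 against 64.5 and SREBF2 at 138 against 83.2. These 4 genes were higher in that library than in every other DU145 library. The excess of SREBF2 came from 1 transcript of 432 bases with a retained intron, which held 41.9% of the gene's TPM there and at most 0.901% in any other library. Values of DU145 with MG63 cells include that library unless stated otherwise, and the counts, medians and named changes that it bears on most are also given without it.

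The bases just upstream of a start site are shown for 4 genes: INSIG1, HMGCS1 and SCD, which fell with MG63 cells in all 4 lines, and SREBF2, the gene of the factor that drives the sterol route. Each is the stretch of 250 bases before the first RefSeq start of the gene on GRCh38.p14, read 5′ to 3′ on the gene's strand. They lie at chr7:155297628-155297877 (plus strand), chr5:43313413-43313662 (minus strand), chr10:100346983-100347232 (plus strand) and chr22:41832855-41833104 (plus strand). Capitals mark the letters TCACNCCAC of a sterol regulatory element and CCAAT of the NF-Y factor, on either strand.
INSIG1: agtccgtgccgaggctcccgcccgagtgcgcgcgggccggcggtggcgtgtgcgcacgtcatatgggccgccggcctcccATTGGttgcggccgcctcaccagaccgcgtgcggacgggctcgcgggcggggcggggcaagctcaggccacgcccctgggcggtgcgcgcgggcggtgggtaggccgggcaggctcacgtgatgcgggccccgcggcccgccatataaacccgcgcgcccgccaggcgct
HMGCS1: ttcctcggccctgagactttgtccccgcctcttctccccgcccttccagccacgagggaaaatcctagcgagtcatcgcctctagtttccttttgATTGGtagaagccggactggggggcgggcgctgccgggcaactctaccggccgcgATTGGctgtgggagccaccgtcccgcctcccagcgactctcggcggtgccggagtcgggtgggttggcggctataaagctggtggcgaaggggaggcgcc
SCD: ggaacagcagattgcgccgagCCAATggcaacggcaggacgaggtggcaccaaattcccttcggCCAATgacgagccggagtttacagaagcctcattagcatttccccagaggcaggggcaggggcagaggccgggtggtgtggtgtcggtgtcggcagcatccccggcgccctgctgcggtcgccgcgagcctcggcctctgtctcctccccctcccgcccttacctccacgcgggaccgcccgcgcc
SREBF2: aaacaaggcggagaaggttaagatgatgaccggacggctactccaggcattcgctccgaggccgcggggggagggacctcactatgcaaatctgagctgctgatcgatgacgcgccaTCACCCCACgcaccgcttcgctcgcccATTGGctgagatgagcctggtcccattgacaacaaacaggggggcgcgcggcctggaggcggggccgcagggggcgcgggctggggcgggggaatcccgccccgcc
SREBF2 was the only 1 of the 24 genes read here that held TCACNCCAC in its window of 300 bases, from 133 to 125 bases before the start (4.17%), beside 1.39% of 27305 genes. CCAAT was in 19 of the 24 (79.2%), beside 39.7% of all genes, GGGCGG, the letters of the Sp1 factor, in 23 (95.8%), beside 48.3%, and CACGTG, an E-box, in 3 (12.5%), beside 8.77%. A match is a description of letters and no evidence of binding. The promoters of ACAT2, FASN, FDFT1 and SQLE were not analysed here.

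In mono-culture without RANKL, of the 28 genes, 8 were higher and 16 lower in the BPCa lines than in the LPCa lines, where 39.4% of all genes tested were higher and 40.4% lower, so that most genes of any kind differed between these lines and nothing is read from the count. The lower genes included 6 of the 7 mevalonate genes (all but PMVK) and 7 of the 11 sterol genes. Their largest differences were in MVD (−1.54 ± 0.15), SQLE (−1.47 ± 0.060), HMGCS1 (−1.41 ± 0.066) and ACAT2 (−1.27 ± 0.12). STARD4, which carries sterols between membranes, was at 7.27 ± 0.53 TPM in C4-2 and 5.62 ± 0.73 TPM in C4-2B, against 42.29 ± 1.9 TPM in DU145 and 24.2 ± 0.75 TPM in 22Rv1 (SD, n = 3 each).

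Of the 6 fatty acid genes 3 were higher and 1 lower in the BPCa lines. FASN, the fatty acid synthase, was at 352 ± 17 TPM in C4-2 and 479 ± 58 TPM in C4-2B, against 113 ± 3.5 TPM in DU145 and 195 ± 4.1 TPM in 22Rv1, a difference of 1.53 ± 0.056 (adjusted p = 2.5e-13, edgeR). SREBF1 was higher in BPCa lines by 2.15 ± 0.053, with means of 234 and 293 TPM against 38.7 TPM in DU145 and 98.7 TPM in 22Rv1. ELOVL6, which lengthens palmitate to stearate, was lower by 3.36 on the log2 scale (SE 0.076), at 4.63 and 3.397 TPM in C4-2 and C4-2B against 32.8 and 55.4 TPM in DU145 and 22Rv1. The order of the 4 lines did not overlap between phenotypes for any of these 3 genes.

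**Figure D1:**
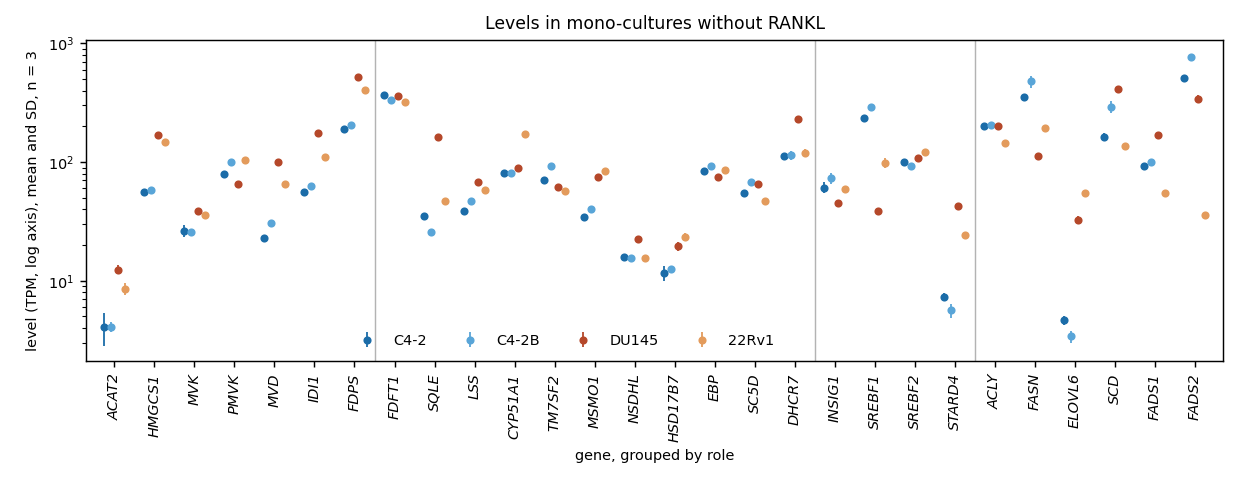
Level of each of the 28 genes in mono-culture without RANKL (y axis, TPM on a log scale; x axis, genes grouped by role), as the mean of 3 libraries per line with its SD as a bar. ELOVL6 and STARD4 are low in C4-2 and C4-2B, FADS2 is low in 22Rv1, and SQLE stands highest in DU145 at 163 TPM.

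A phenotype mean hid large differences between its own lines. FADS2, the desaturase that starts the synthesis of highly unsaturated fatty acids, was at 516 ± 6.6 TPM in C4-2, 766 ± 47 TPM in C4-2B and 342 ± 27 TPM in DU145, but at 35.7 ± 2.0 TPM in 22Rv1. Between DU145 and 22Rv1 it differed by 3.27 ± 0.073 (adjusted p = 5.8e-16, edgeR), and SQLE, a rate-limiting oxygenase of sterol synthesis, by 1.81 ± 0.085. In all, 16 of the 28 genes were higher and 7 lower in DU145 than in 22Rv1, with 39.1% and 40.5% of all genes tested. C4-2B differed from C4-2 in 9 higher and 3 lower genes, where the background was 7.41% and 6.24% of all genes. The higher genes were led by SCD (0.88 ± 0.14), FADS2 (0.62 ± 0.066) and FASN (0.49 ± 0.078), and SQLE was the lower gene with the largest difference (−0.42 ± 0.086).

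With MG63 cells more of the synthesis genes fell than rose in each of the 4 lines. Against mono-culture, 12 of the 28 fell and 1 rose in C4-2, 10 fell and 1 rose in C4-2B, 19 fell and 1 rose in DU145, and 12 fell and 2 rose in 22Rv1. Of all genes tested, 4.79%, 3.89%, 15.3% and 9.18% fell in these lines, and 5.3%, 3.52%, 15.2% and 11.2% rose. The median change of the 28 genes was −0.34, −0.27, −0.51 and −0.27, beside medians of −0.009, −0.002, −0.062 and 0.001 over all genes tested. Their summed level went from 3068 to 2275 TPM in C4-2, from 3720 to 2899 TPM in C4-2B, from 3812 to 2721 TPM in DU145 and from 2837 to 2328 TPM in 22Rv1. HMGCS1, IDI1, MSMO1, INSIG1, SCD and FADS2 fell in all 4 lines, and MVK, PMVK, MVD, FDPS, TM7SF2 and EBP fell in none. Without the library that stood apart 24 genes fell and 0 rose in DU145, MVK, MVD, FDPS, TM7SF2 and EBP among them, the median was −0.51 as before, and the summed level of the remaining co-culture was 2472 TPM. The epithelial and prostate markers also differed between these cultures, with a summed level of 6 markers of 6739 to 6989 TPM in mono-culture and 5502 to 5585 TPM with MG63 cells in C4-2, 7424 to 7817 and 5615 to 5837 TPM in C4-2B, 1047 to 1080 and 873 to 1469 TPM in DU145, and 869 to 878 and 1256 to 1306 TPM in 22Rv1. KRT8 in 22Rv1 was at 230.0 to 240 TPM in mono-culture and 364 and 366 TPM with MG63 cells, and KLK3, most of the sum in C4-2 and C4-2B, was at 4603 to 4759 and 3583 and 3632 TPM in C4-2. The keratins of C4-2 went the other way, with KRT8 at 251 to 268 and 278 and 285 TPM and KRT18 at 365 to 388 and 402 and 410 TPM. The part of these shifts in the results on MG63 cells was not tested.

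**Figure D2:**
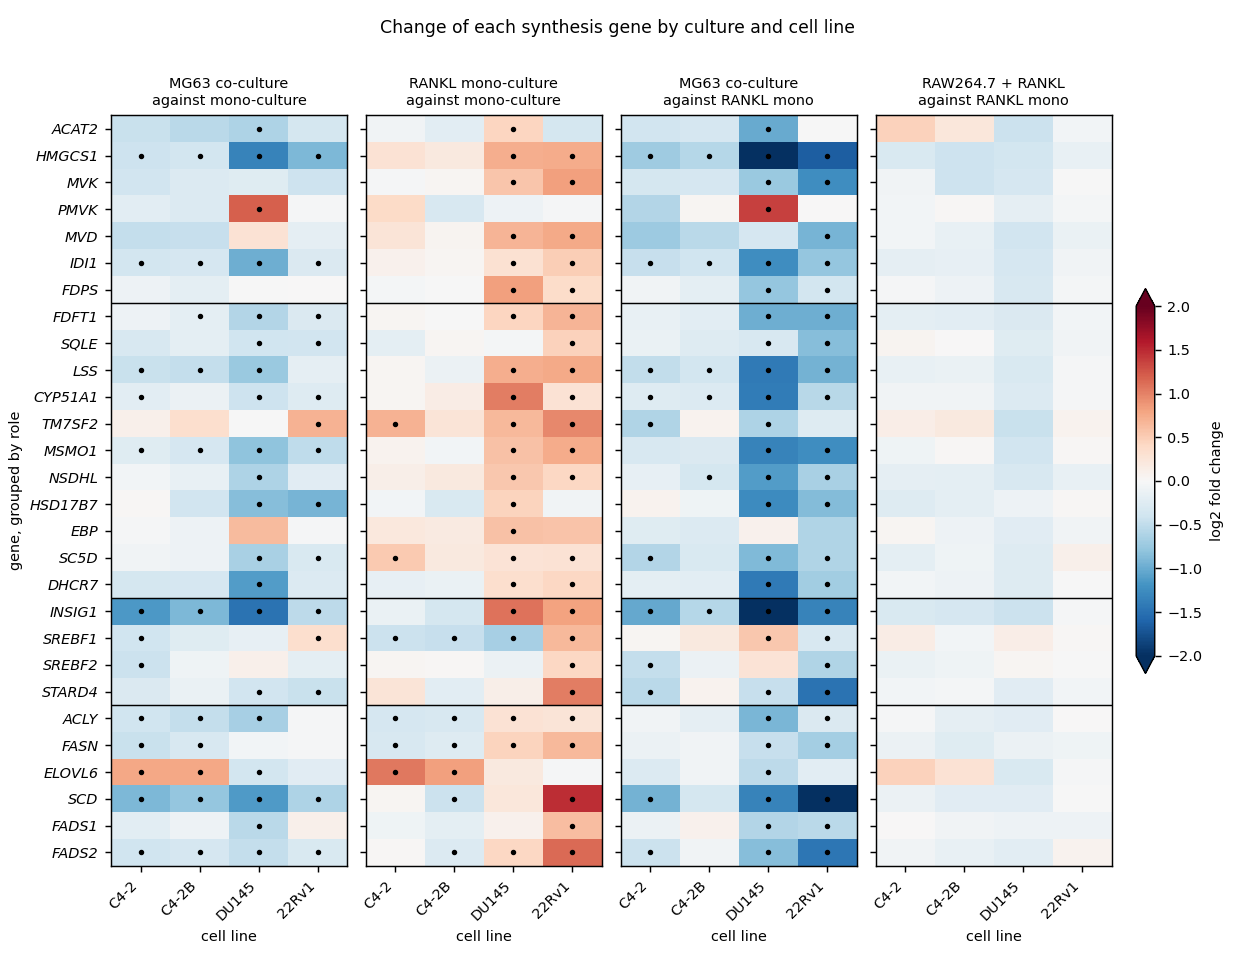
Log2 fold change of each gene (rows, grouped by role) in each line (columns) for the 4 culture comparisons, coloured from −2 to 2, with a dot where the adjusted p was under 0.05. MG63 co-cultures are mostly blue in each line. RANKL mono-cultures are mostly red in DU145 and 22Rv1 and mixed in C4-2 and C4-2B, and the RAW264.7 comparison has no dot. The 3 changes beyond −2 (INSIG1 and HMGCS1 in DU145 and SCD in 22Rv1, MG63 against RANKL mono-culture) are drawn in the end colour.

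INSIG1 had the largest fall of the 28 genes in C4-2, C4-2B and DU145. It was at 60.2, 55.0 and 67.7 TPM in C4-2 mono-cultures and at 23.0 and 28.1 TPM with MG63 cells. In C4-2B it was at 67.0, 70.3 and 82.5 against 33.2 and 41.99 TPM, in DU145 at 41.7, 47.0 and 46.3 against 17.6 and 12.8 TPM, and in 22Rv1 at 60.3, 56.7 and 60.4 against 38.96 and 37.5 TPM. Every co-culture was below every mono-culture of its line. The changes were −1.15 ± 0.14, −0.90 ± 0.14, −1.48 ± 0.15 and −0.52 ± 0.14, with adjusted p of 6.5e-05, 0.00082, 1.8e-05 and 0.013 (edgeR). In DU145 INSIG1 changed by −1.27 ± 0.18 without the library that stood apart.

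Of the mevalonate genes, HMGCS1, which condenses acetyl-CoA units to HMG-CoA, and IDI1 fell in all 4 lines. HMGCS1 was at 56.4, 52.0 and 58.0 TPM in C4-2 mono-cultures against 38.5 and 38.6 TPM with MG63 cells, and at 57.1, 54.6 and 61.7 against 42.4 and 43.4 TPM in C4-2B. In DU145 it went from 157, 174 and 173 to 74.0 and 52.0 TPM, and in 22Rv1 from 149, 144 and 148 to 76.1 and 69.4 TPM. The groups did not overlap in any line, and the fall was −0.42 ± 0.11 and −0.37 ± 0.11 in the BPCa lines against −1.34 ± 0.11 and −0.90 ± 0.11 in the LPCa lines (−1.10 ± 0.074 in DU145 without the library that stood apart). The adjusted p was 0.0496 in C4-2B, just under the threshold. IDI1, which isomerises the isoprene unit, went from 53.0 to 58.6 TPM in C4-2 mono-cultures to 41.5 and 39.2 TPM, and from 62.2 to 65.9 TPM in C4-2B to 46.8 and 49.1 TPM. It went from 170 to 181 TPM in DU145 to 85.3 and 83.7 TPM, and from 107 to 113 TPM in 22Rv1 to 87.5 and 80.5 TPM. Its changes were −0.37, −0.34, −0.98 and −0.29, all with SE of at most 0.060 and adjusted p of at most 0.0024. ACAT2, a thiolase of the first step, fell in DU145 (−0.61 ± 0.20), and without that library its −0.65 ± 0.25 did not pass (adjusted p = 0.097, edgeR). PMVK, a kinase of the pathway, was the gene that rose in DU145 (1.2 ± 0.32), and without the library that stood apart its change was −0.14 (adjusted p = 0.30, edgeR).

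Among the sterol genes, MSMO1, a demethylase of methylsterols, was lower in every line, by 0.25 to 0.80 on the log2 scale. Its levels in C4-2 were 34.7, 33.9 and 34.6 TPM against 26.4 and 27.3 TPM with MG63 cells, and in C4-2B 40.9, 37.7 and 41.5 against 30.1 and 30.6 TPM. In DU145 they were 70.1, 78.3 and 76.3 against 37.9 and 44.0 TPM, and in 22Rv1 81.8, 86.0 and 84.1 against 55.3 and 54.1 TPM. LSS, which closes squalene epoxide to lanosterol, fell in C4-2 (−0.45 ± 0.063), C4-2B (−0.47 ± 0.062) and DU145 (−0.74 ± 0.062). CYP51A1, the lanosterol demethylase, fell in C4-2, DU145 and 22Rv1, and FDFT1, the squalene synthase, in C4-2B, DU145 and 22Rv1. DU145 had the most sterol genes that fell, 9 of 11, with DHCR7, which makes the last step to cholesterol on one of its branches, at −1.11 ± 0.12, from 217 to 242 TPM in mono-culture to 119 and 82.5 TPM. Without the library that stood apart all 11 fell, DHCR7 by −0.87 ± 0.087 and SQLE by −0.63 ± 0.066. In 22Rv1 6 of 11 fell, led by HSD17B7 (−0.93 ± 0.17), and TM7SF2, a sterol reductase, rose (0.70 ± 0.14) from 56.4 to 58.9 TPM to 82.0 and 91.3 TPM. In C4-2 and in C4-2B 3 of 11 fell. SQLE was at 35.4, 33.5 and 37.2 TPM in C4-2 mono-cultures against 26.2 and 26.3 TPM, and at 26.3, 25.3 and 25.3 against 21.5 and 21.3 TPM in C4-2B. It was at 157, 166 and 165 against 99.5 and 136 TPM in DU145 and at 47.2, 46.0 and 47.4 against 36.1 and 30.3 TPM in 22Rv1. All MG63 libraries lay below their mono-cultures, and the change passed the test in DU145 (−0.40 ± 0.094) and 22Rv1 (−0.39 ± 0.099) and not in C4-2 (−0.32 ± 0.10, adjusted p = 0.052, edgeR) or C4-2B (−0.20 ± 0.10).

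The 2 genes of the SREBP factors had smaller changes than INSIG1. SREBF1 was at 232, 232 and 238 TPM in C4-2 mono-cultures against 155 and 174 TPM with MG63 cells, a fall of −0.40 ± 0.081. It was at 296, 281 and 303 against 239 and 236 TPM in C4-2B (−0.24 ± 0.080, adjusted p = 0.081, edgeR) and at 38.3, 38.4 and 39.2 against 29.2 and 36.5 TPM in DU145 (−0.17 ± 0.087). In DU145 it fell by −0.33 ± 0.10 without the library that stood apart (adjusted p = 0.043, edgeR). In 22Rv1 it rose, from 108, 98.3 and 90.01 to 120 and 110 TPM (0.34 ± 0.081). SREBF2 fell in C4-2, from 99.1, 99.2 and 101 to 68.7 and 68.2 TPM (−0.43 ± 0.13). It was at 93.8, 88.5 and 96.5 against 84.8 and 83.8 TPM in C4-2B, at 105, 108 and 111 against 83.2 and 138 TPM in DU145, and at 121, 124 and 119 against 102 and 94.1 TPM in 22Rv1. Its change in DU145 was 0.10 ± 0.12 with both co-cultures and −0.30 without the library that stood apart. STARD4 fell in DU145 (−0.38 ± 0.090) and 22Rv1 (−0.44 ± 0.096).

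The level of SREBF1 was spread over several transcripts, of which SREBF1-201 has 4178 bases. It held 33.2% of the gene's TPM in C4-2 mono-cultures and 40.3% with MG63 cells, 28.4% and 29.2% in C4-2B, 32.5% and 26.6% in DU145, and 16.1% and 16.9% in 22Rv1. SREBF1-202, of 4253 bases, held 24.3% in 22Rv1 mono-cultures and 7.30% in those of DU145. Transcript shares are the authors' estimates and were not tested.

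Of the fatty acid genes, the desaturases SCD and FADS2 fell in all 4 lines. SCD, which puts the first double bond into stearate and palmitate, was at 162, 152 and 178 TPM in C4-2 mono-cultures against 82.2 and 81.0 TPM with MG63 cells, and at 267, 279 and 332 against 153 and 175 TPM in C4-2B. It was at 380, 422 and 429 against 224 and 130 TPM in DU145 and at 134, 141 and 135 against 85.8 and 79.8 TPM in 22Rv1. No co-culture reached a mono-culture of its line, and the changes were −0.90 ± 0.16, −0.78 ± 0.16, −1.14 ± 0.16 and −0.61 ± 0.16, with adjusted p of 0.0019, 0.0066, 0.00023 and 0.013 (edgeR). In DU145 SCD changed by −0.80 ± 0.11 without the library that stood apart. FADS2 went from 515, 509 and 522 to 360 and 366 TPM in C4-2, and from 743, 734 and 820 to 601 and 566 TPM in C4-2B. It went from 315, 342 and 368 to 245 and 220 TPM in DU145, and from 36.04, 33.6 and 37.5 to 27.5 and 26.4 TPM in 22Rv1. Its change was −0.40 ± 0.074 in C4-2, −0.33 ± 0.074 in C4-2B, the line with its highest level, −0.48 ± 0.075 in DU145 and −0.30 ± 0.081 in 22Rv1, the line with its lowest. FADS1, the desaturase of the next step, passed the test in DU145 (−0.55 ± 0.14, and −0.22 ± 0.066 without the library that stood apart) and in no other line.

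ACLY fell in 3 lines. It went from 196, 207 and 197 to 137 and 146 TPM in C4-2, from 205, 206 and 207 to 138 and 144.7 TPM in C4-2B, and from 196, 194 and 213 to 134 and 108 TPM in DU145, by −0.39 ± 0.084, −0.48 ± 0.084 and −0.66 ± 0.085. In 22Rv1 it was at 146, 148 and 137 against 141 and 120 TPM, and the groups overlapped. FASN passed the test in the BPCa lines and not in the LPCa lines. It fell from 359, 333 and 364 to 234 and 248 TPM in C4-2 (−0.44 ± 0.088) and from 480, 420 and 536 to 360 and 374 TPM in C4-2B (−0.32 ± 0.088). It was at 117, 110 and 113 against 93.3 and 115 TPM in DU145 and at 193, 200 and 192 against 182 and 174 TPM in 22Rv1. ELOVL6 was the gene that rose in both BPCa lines, from 4.57, 5.09 and 4.24 to 7.70 and 6.99 TPM in C4-2 and from 3.78, 3.44 and 2.98 to 5.996 and 5.14 TPM in C4-2B (0.78 ± 0.14 and 0.78 ± 0.15). It fell in DU145, from 32.7, 34.9 and 30.9 to 26.9 and 21.2 TPM (−0.37 ± 0.11, but −0.21 ± 0.11 and not passing without the library that stood apart), and was at 56.1, 55.0 and 55.2 against 46.6 and 40.5 TPM in 22Rv1 (−0.23 ± 0.10, adjusted p = 0.13, edgeR).

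**Figure D3:**
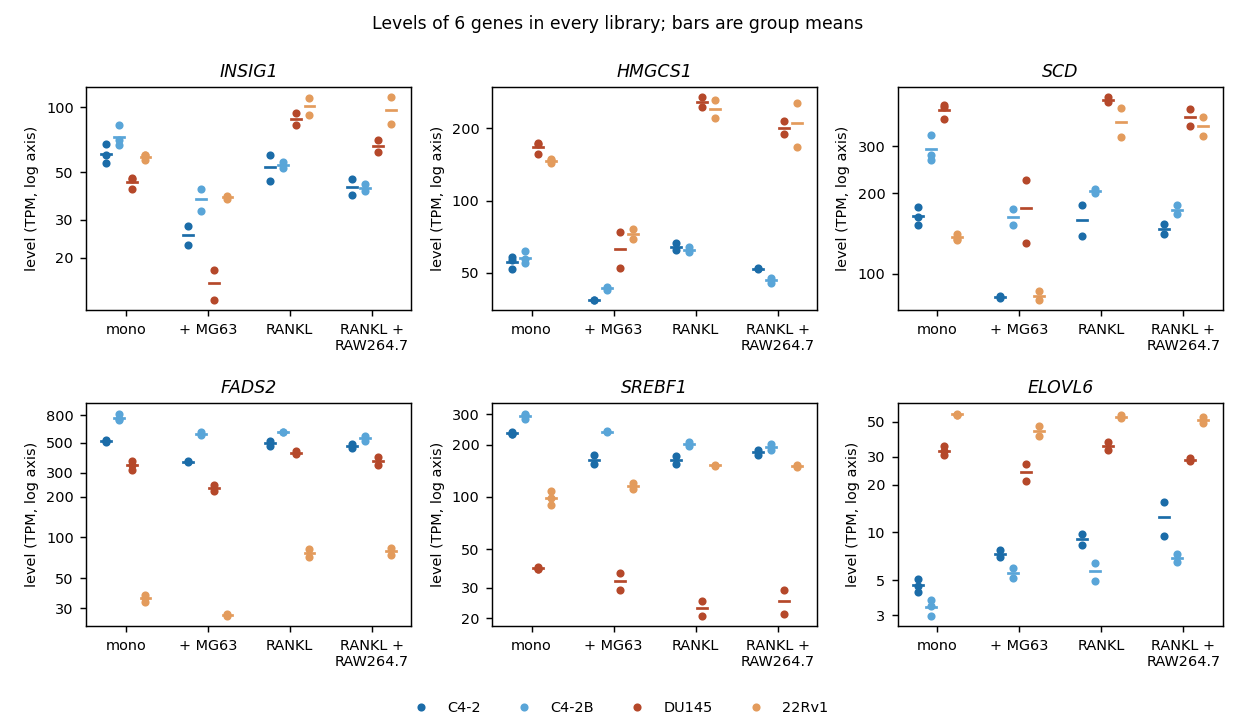
Level of 6 of the genes in each of the 36 libraries (y axis, TPM on a log scale; x axis, the 4 cultures; 1 point per library, coloured by line, with bars at the group means). The means of INSIG1, HMGCS1 and SCD are lowest with MG63 cells in every line, whereas ELOVL6 lies lowest in mono-culture without RANKL in C4-2 and C4-2B.

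How firm these counts are differed by line. In DU145 the fit of all 20 libraries without RANKL used the spread of every line, and a fit of the DU145 mono-cultures and MG63 co-cultures by themselves called 0 of the 28 genes and 8 of 11868 genes in all. Without replicate 2 of the MG63 co-cultures the 20-library design called 24 genes lower and 0 higher, and without replicate 1 it called 18 lower and 6 higher. Without replicate 1 of the MG63 co-cultures, 6 genes passed in C4-2 and 5 in C4-2B, without replicate 2 6 passed in C4-2B, and without replicate 2 of those in 22Rv1 7 passed there. Whichever library was left out, IDI1, LSS, INSIG1, ELOVL6, SCD and FADS2 stayed called in C4-2, IDI1, LSS, INSIG1 and ACLY in C4-2B, 17 of the 20 genes in DU145 (not ACAT2, PMVK and ELOVL6), and HMGCS1, IDI1, FDFT1, MSMO1, HSD17B7 and STARD4 in 22Rv1.

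Among genes of related routes some fell and some rose with MG63 cells. ACSL3, which activates fatty acids, fell in all 4 lines, by −0.72 ± 0.088, −0.82 ± 0.089, −0.51 ± 0.093 and −0.51 ± 0.091. It was 1 of 13 other lipogenic genes tested, of which 1 fell and 1 rose in C4-2, 1 fell and 2 rose in C4-2B, 5 fell and 2 rose in DU145, and 2 fell and 2 rose in 22Rv1. For this and the lists below, 4.79%, 3.89%, 15.3% and 9.18% of all genes tested fell in these lines, and 5.3%, 3.52%, 15.2% and 11.2% rose. DGAT2, which completes triglycerides, rose in C4-2 (0.42 ± 0.077), C4-2B (0.49 ± 0.076) and 22Rv1 (0.32 ± 0.083), and ELOVL5, an elongase, fell in DU145 (−0.51 ± 0.11) and 22Rv1 (−0.58 ± 0.11). Of 9 genes of a list drawn up for other sterol and isoprenoid steps, 1, 1, 4 and 2 fell in C4-2, C4-2B, DU145 and 22Rv1 and 0, 0, 0 and 1 rose. The list includes MMAB, an enzyme of cobalamin metabolism and not of sterols. LBR, a sterol reductase of the nuclear envelope, was lower in C4-2 (−0.56 ± 0.10), DU145 (−0.38 ± 0.10) and 22Rv1 (−0.45 ± 0.10). Of the 4 genes of SREBP processing, INSIG2 fell in C4-2B (−0.78 ± 0.18), and none passed in C4-2 or 22Rv1. In DU145 SCAP was at 47.1 to 50.2 TPM in mono-culture and at 50.5 and 100 TPM with MG63 cells, the higher value in the library that stood apart. Its change there was 0.68 ± 0.17 with that library and 0.12 ± 0.082 without it (adjusted p = 0.36, edgeR), and that of MBTPS2 −0.32 ± 0.12 and −0.08 ± 0.11, so that neither passed without it. Without it 5 of the 13 lipogenic genes fell and 0 rose in DU145, and 2 of the 9 sterol and isoprenoid genes fell, with LBR at −0.14 ± 0.058 and not passing, ELOVL5 at −0.27 ± 0.065 and ACSL3 at −0.42 ± 0.12.

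Of 9 genes of a list drawn up for fatty acid oxidation, 1 rose in C4-2, 0 in C4-2B, 4 in DU145 and 3 in 22Rv1, where 5.3%, 3.52%, 15.2% and 11.2% of all genes rose. In DU145 the genes that rose were led by ANGPTL4, a secreted lipase inhibitor (1.77 ± 0.20), and PLIN2, a lipid droplet protein (0.87 ± 0.12), and in 22Rv1 by PDK4, which diverts pyruvate from oxidation (1.54 ± 0.12), and CPT1A, which brings fatty acids into mitochondria (0.70 ± 0.096). ANGPTL4, PLIN2 and PDK4 do not themselves oxidise fatty acids. The other genes that rose were HADHB in C4-2 and ACADVL and HADHA in DU145, which do, and CPT2 in 22Rv1, which like CPT1A serves transport into mitochondria. Without the library that stood apart ACADVL and HADHA did not pass in DU145, where 3 genes of the list rose (CPT1A with ANGPTL4 and PLIN2) and 1 fell, with ANGPTL4 at 1.21 ± 0.15 and PLIN2 at 0.79 ± 0.12. NR1H3, the liver X receptor alpha, rose in 22Rv1 (0.62 ± 0.21). In DU145 it was at 5.74 to 8.89 TPM in mono-culture against 9.09 TPM and, in the library that stood apart, 19.9 TPM, a change of 1.09 ± 0.23 with that library and of 0.45 ± 0.22 without it (adjusted p = 0.18, edgeR). Of the 4 genes of the liver X receptor list tested here, 2 rose in 22Rv1, none passed in C4-2 or C4-2B, and in DU145 1 rose and 1 fell with that library and none passed without it.

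RANKL by itself went with higher synthesis genes in the LPCa lines. Against mono-culture without RANKL, 20 of the 28 genes rose and 1 fell in DU145 and 23 rose and 0 fell in 22Rv1, where 16.9% and 8.9% of all genes rose and 15.6% and 8.85% fell. In C4-2 3 rose and 3 fell, and in C4-2B 1 rose and 5 fell, where 9.16% and 6.07% of all genes rose and 9.16% and 8.32% fell. The medians of the 28 genes were 0.43 in DU145, 0.59 in 22Rv1, 0.04 in C4-2 and −0.03 in C4-2B, beside −0.011, −0.013, −0.023 and −0.023 over all genes. The summed level went from 3812 to 4849 TPM in DU145 and from 2837 to 4195 TPM in 22Rv1. The epithelial and prostate markers differed between the same libraries. In DU145, beside EPCAM as given above, KRT8 was at 615 to 639 TPM without and 913 and 917 TPM with RANKL, and KRT18 at 406 to 418 and 751 and 764 TPM. In 22Rv1 KLK3 was at 52.4 to 60.5 TPM without and 92.4 and 101 TPM with RANKL, and KRT18 at 233 to 243 and 351 and 369 TPM. The summed level of 6 such markers was 6739 to 6989 TPM without and 5406 to 5553 TPM with RANKL in C4-2, 7424 to 7817 and 4726 to 4758 TPM in C4-2B, 1047 to 1080 and 1769 to 1770 TPM in DU145, and 869 to 878 and 1072 to 1126 TPM in 22Rv1. The part of these shifts in the results on RANKL was not tested.

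In 22Rv1 SCD and FADS2 had the 2 largest rises of the 28 genes. SCD was at 418 and 324 TPM with RANKL, above the 134 to 141 TPM without it (1.47 ± 0.14, adjusted p = 4.6e-08, edgeR). FADS2 was at 82.4 and 72.1 TPM, above 33.6 to 37.5 TPM (1.14 ± 0.075), and FASN at 309 and 292 TPM, above 192 to 200 TPM (0.65 ± 0.084). ACLY also rose (0.25 ± 0.076), to 168 and 167 TPM. STARD4 went from 23.3 to 24.7 TPM to 53.3 and 43.9 TPM (1.03 ± 0.093), INSIG1 to 111 and 92.6 TPM (0.81 ± 0.13) and HMGCS1 to 262 and 220 TPM (0.75 ± 0.11). SREBF1 (154 and 151 TPM, 0.66 ± 0.092) and SREBF2 (159 and 157 TPM, 0.41 ± 0.11) rose as well, so that all 4 regulators and carriers, 9 of 11 sterol genes, 5 of 7 mevalonate genes and 5 of 6 fatty acid genes were higher. SQLE was at 65.9 and 61.0 TPM. ACAT2, PMVK, HSD17B7, EBP and ELOVL6 did not pass the test in this line.

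In DU145 6 of 7 mevalonate and 10 of 11 sterol genes rose. CYP51A1 was at 178 and 163 TPM with RANKL against 88.0 to 91.6 TPM without it (1.03 ± 0.061, adjusted p = 4.1e-12, edgeR). INSIG1 was at 94.3 and 82.5 TPM (1.08 ± 0.13), HMGCS1 at 270 and 246 TPM (0.72 ± 0.11), and FDPS, the farnesyl diphosphate synthase, at 846 and 860 TPM against 513 to 528 TPM (0.81 ± 0.11). SQLE, at 149 and 147 TPM, did not pass the test (−0.03 ± 0.088). The fatty acid genes ACLY (246 and 211 TPM, 0.28 ± 0.075), FASN (139 and 149 TPM, 0.45 ± 0.085) and FADS2 (435 and 410 TPM, 0.41 ± 0.070) rose, and SCD, at 457 and 438 TPM against 380 to 429 TPM, did not pass (0.23 ± 0.14). SREBF1 fell in the same libraries, to 20.6 and 25.1 TPM (−0.66 ± 0.11), and SREBF2, at 94.5 and 91.0 TPM, did not pass.

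In the BPCa lines no mevalonate gene passed the test with RANKL, and some fatty acid genes fell. INSIG1 was at 45.6 and 59.8 TPM in C4-2 and 52.4 and 56.0 TPM in C4-2B, changes of −0.13 ± 0.14 and −0.35 ± 0.14 that did not pass. HMGCS1 was at 62.1 and 66.2 TPM and at 60.9 and 63.9 TPM, and did not pass either. SQLE was at 27.7 and 31.0 TPM in C4-2 and 26.0 and 23.9 TPM in C4-2B, and SREBF2 at 93.3 and 101 TPM and at 91.9 and 87.0 TPM. SREBF1 fell to 154 and 173 TPM in C4-2 (−0.43 ± 0.093) and to 207 and 196 TPM in C4-2B (−0.46 ± 0.092). ACLY fell to 155 and 144.9 TPM and to 150 and 161 TPM (−0.33 and −0.32, SE 0.076 each), and FASN to 248 and 281 TPM and to 373 and 380 TPM (−0.33 and −0.26, SE 0.085 each). SCD was at 139 and 180 TPM in C4-2, and in C4-2B it fell to 200 and 208 TPM (−0.44 ± 0.14). FADS2 was at 472 and 517 TPM in C4-2, and in C4-2B it fell to 602 and 599 TPM (−0.27 ± 0.071). ELOVL6 rose in both, to 8.38 and 9.78 TPM in C4-2 (1.05 ± 0.16) and to 6.43 and 4.97 TPM in C4-2B (0.82 ± 0.17). In C4-2, TM7SF2 (0.69 ± 0.13) and SC5D, a sterol desaturase (0.52 ± 0.091), were the other genes that rose.

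Of the related lists with RANKL, ERG28, TMEM97 and MMAB, the last of cobalamin metabolism, rose in both LPCa lines. ERG28, a scaffold of sterol enzymes, was at 0.72 ± 0.077 in DU145 and 0.49 ± 0.080 in 22Rv1. Of the 9 other sterol and isoprenoid genes, 4 rose in DU145, 3 rose and 2 fell in 22Rv1, 3 rose and 1 fell in C4-2, and none passed in C4-2B. SLC25A1, the citrate carrier, rose in DU145 (0.60 ± 0.080) and 22Rv1 (0.51 ± 0.080), and MID1IP1, a partner of acetyl-CoA carboxylase, in DU145 (0.27 ± 0.065) and 22Rv1 (0.74 ± 0.062). MYLIP, the ligase that degrades lipoprotein receptors, fell in DU145 (−1.17 ± 0.12) and rose in 22Rv1 (0.40 ± 0.12). INSIG2 fell in C4-2 (−0.47 ± 0.17) and C4-2B (−0.70 ± 0.16), and SCAP, MBTPS1 and MBTPS2, which escort and cut the SREBP factors, fell in DU145 (−0.44 ± 0.15, −0.41 ± 0.085 and −0.27 ± 0.098). Of the 9 genes of the oxidation list, 1 rose in C4-2, none passed in C4-2B, 1 rose and 2 fell in DU145, and 2 rose and 1 fell in 22Rv1. For all of these lists, the shares of all genes that rose were 9.16%, 6.07%, 16.9% and 8.9% in C4-2, C4-2B, DU145 and 22Rv1. The shares that fell were 9.16%, 8.32%, 15.6% and 8.85%.

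With any single library of the comparison left out, 15 to 18 genes were called in DU145, 17 to 21 in 22Rv1, 4 to 6 in C4-2 and 1 to 5 in C4-2B, where the count was 1 without replicate 1 of the RANKL mono-cultures and 3 without replicate 2 or without replicate 3 of the mono-cultures. A fit of the 2 groups of a line by themselves called 10 genes in C4-2 and 13 in C4-2B. Of all genes, that fit called 2139 higher and 1793 lower of 11267 in C4-2, and 1633 higher and 1561 lower of 11348 in C4-2B.

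Set against RANKL mono-cultures, which were closer to them in depth, more of the synthesis genes again fell than rose in the MG63 co-cultures. This comparison uses the same MG63 libraries as the one against mono-culture without RANKL, and it differs in RANKL as well as in the partner cell. Epithelial and prostate markers differed here too, in both directions. In DU145 mean EPCAM was 16.3 TPM with MG63 cells and 87.2 TPM with RANKL, and mean KRT8 628 and 915 TPM. In C4-2B mean KLK3 was 4001 TPM with MG63 cells and 3245 TPM with RANKL. The part of these differences in the comparison was not tested. In C4-2 11 genes fell and 0 rose, in C4-2B 6 and 0, in DU145 23 and 2, and in 22Rv1 23 and 0. Of all genes tested 5.37%, 3.4%, 17.1% and 7.26% fell, and 4.89%, 4.23%, 19.4% and 8.02% rose. The medians of the 28 genes were −0.34, −0.23, −0.87 and −0.68, beside 0.008, 0.000, 0.004 and 0.010 over all genes.

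HMGCS1, IDI1, LSS, CYP51A1 and INSIG1 fell in all 4 lines against this control. In C4-2B these calls depended on single libraries, as given below. INSIG1 changed by −1.02 ± 0.16, −0.56 ± 0.15, −2.52 ± 0.17 and −1.33 ± 0.15 in C4-2, C4-2B, DU145 and 22Rv1, and by −2.34 ± 0.21 in DU145 without the library that stood apart. HMGCS1 changed by −0.71 ± 0.14, −0.57 ± 0.14, −2.02 ± 0.13 and −1.65 ± 0.13. SCD changed by −0.94 ± 0.16 in C4-2, −1.33 ± 0.16 in DU145 and −2.09 ± 0.16 in 22Rv1, and in C4-2B its −0.35 ± 0.16 did not pass (adjusted p = 0.20, edgeR). FADS2 likewise fell in C4-2 (−0.42 ± 0.077), DU145 (−0.85 ± 0.078) and 22Rv1 (−1.44 ± 0.088) and not in C4-2B (−0.08 ± 0.077).

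Some changes against mono-culture without RANKL were not found against the control of closer depth. ELOVL6 was 0.78 higher in both BPCa lines against the first control and −0.28 ± 0.18 in C4-2 and −0.06 ± 0.20 in C4-2B against the second. In these lines the RANKL mono-cultures and both kinds of co-culture all lay above the mono-cultures without RANKL. SREBF1 in C4-2, ACLY in C4-2 and C4-2B and FASN in both BPCa lines were lower against the first control, and their changes against the second were 0.03 ± 0.10, −0.06 ± 0.084, −0.17 ± 0.084, −0.11 ± 0.093 and −0.07 ± 0.092. TM7SF2 in 22Rv1 was 0.70 higher against the first and −0.26 ± 0.15 against the second. In C4-2 8 genes fell against both controls, 66.7% of the 12 and 72.7% of the 11, and in C4-2B 4 (HMGCS1, IDI1, LSS and INSIG1), 40.0% of the 10 and 66.7% of the 6. In DU145 19 fell against both, which are 100% and 82.6%, and in 22Rv1 12, which are 100% and 52.2%. In these 2 lines the second control was itself higher than the first, with mean summed levels of 4849 against 3812 TPM in DU145 and 4195 against 2837 TPM in 22Rv1. As the MG63 libraries are also shared, a fall against both controls is no independent support.

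The 2 genes that rose in DU145 in this comparison were PMVK (1.36 ± 0.31), whose change was −0.03 without the library that stood apart, and SREBF1 (0.53 ± 0.12), whose 0.34 ± 0.14 without it did not pass. Without that library the median of the 28 genes was −1.03. With all libraries, a fit of the 2 DU145 groups by themselves called 0 of the 28, and 2 genes higher and 5 lower of 10097 in all. In C4-2B the count of 6 went to 2 without replicate 2 of the MG63 co-cultures and to 1 without any other library of the comparison, and in C4-2 the count of 11 went to 7 without replicate 2 of either group. Of the oxidation list, 6 of 9 genes rose in DU145, 3 in 22Rv1, 2 in C4-2B and 0 in C4-2, where 19.4%, 8.02%, 4.23% and 4.89% of all genes rose. In DU145 they were led by ANGPTL4 (2.04 ± 0.21), which was at 1.44 ± 0.16 without the library that stood apart.

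**Figure D4:**
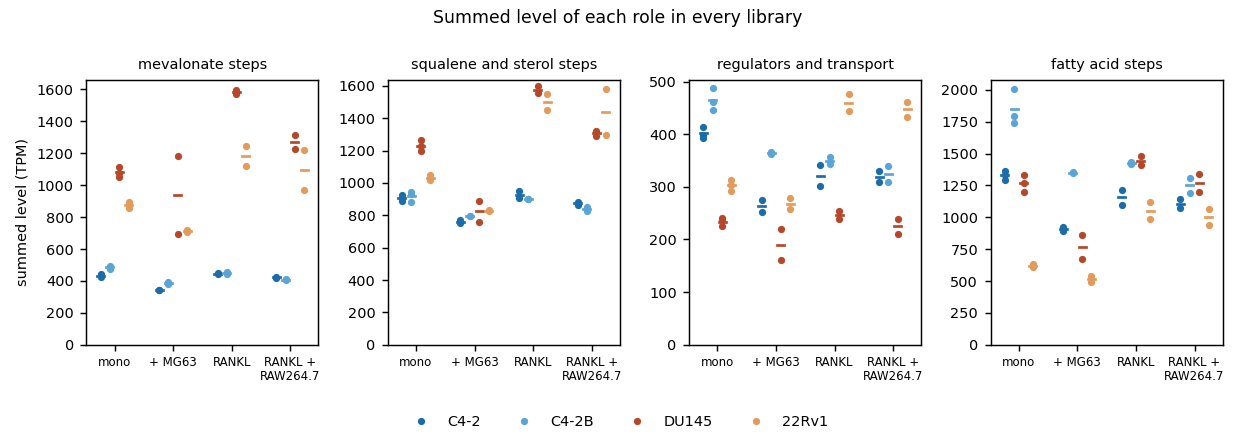
Summed level of the genes of each role in every library (y axis, TPM from 0; x axis, line and culture; 1 point per library). In 22Rv1 the fatty acid sum is 614 to 633 TPM in mono-culture, 493 to 540 TPM with MG63 cells, 988 to 1118 TPM with RANKL and 943 to 1067 TPM with RAW264.7 cells and RANKL.

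With RAW264.7 cells and RANKL, against RANKL mono-culture, none of the 28 genes passed the test in any line. The share of all genes that passed was 0.0174% in C4-2, 0.139% in C4-2B, 0.026% in DU145 and 0.00868% in 22Rv1, so that few genes passed of any kind. At an unadjusted p under 0.05, edgeR gave 4, 7, 21 and 0 of the 28 genes in these lines, and 6.61%, 6.39%, 6.39% and 6.26% of all genes. DESeq2 at its adjusted p gave 0, 0, 2 and 0, with FDPS and TM7SF2 lower in DU145, and limma gave 0 in each line. The medians were −0.06, −0.11, −0.26 and −0.02.

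In DU145 the RAW264.7 co-cultures lay between the 2 kinds of mono-culture for INSIG1 and HMGCS1. INSIG1 was at 62.2 and 70.5 TPM, below the 94.3 and 82.5 TPM with RANKL and above the 41.7 to 47.0 TPM without. HMGCS1 was at 189 and 214 TPM, below the 270 and 246 TPM with RANKL. SCD was at 358 and 414 TPM and SQLE at 120 and 134 TPM. All 21 genes with an unadjusted p under 0.05 were lower, as were 3.34% of all genes at that threshold, and the lowest adjusted p among the 28 was 0.27 (edgeR). In 22Rv1 the replicates spread widely, with HMGCS1 at 254 and 167 TPM, INSIG1 at 111 and 83.9 TPM and SCD at 388 and 329 TPM, and overlapped with RANKL mono-cultures. In C4-2 INSIG1 was at 39.1 and 46.3 TPM and SCD at 141 and 153 TPM, and in C4-2B INSIG1 was at 43.9 and 41.0 TPM, SCD at 180 and 167 TPM and FASN at 335 and 300 TPM. ACLY was at 144.7 and 152, 143 and 130, 195 and 200, and 173 and 155 TPM in C4-2, C4-2B, DU145 and 22Rv1, and FADS2 at 460 and 486, 563 and 516, 344 and 391, and 83.1 and 74.7 TPM. SREBF1 was at 174 and 187, 202 and 186, 21.2 and 29.2, and 150 and 152 TPM, and SREBF2 at 86.4 and 90.02, 88.3 and 78.9, 90.5 and 103, and 152 and 154 TPM. FASN was at 236 and 252 TPM in C4-2, 128 and 139 TPM in DU145 and 294 and 260.3 TPM in 22Rv1, and SQLE at 30.6 and 30.4 TPM in C4-2, 25.7 and 24.4 TPM in C4-2B and 62.6 and 54.8 TPM in 22Rv1. Among the related lists ACSL3 in C4-2B passed (−0.51 ± 0.066, adjusted p = 0.0045, edgeR).

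The difference between BPCa and LPCa lines in their response was tested directly, as the mean change of C4-2 and C4-2B less that of DU145 and 22Rv1. For MG63 against mono-culture, 8 genes had a higher change in BPCa lines and 2 a lower one, where 4.85% and 4.99% of all genes passed. The 8 were HMGCS1 (0.73 ± 0.11), IDI1, FDFT1, MSMO1, NSDHL, HSD17B7 (0.71 ± 0.17), SC5D and ELOVL6 (1.08 ± 0.13), 7 of them of the mevalonate and sterol steps. On the mean those 7 fell less in the BPCa lines, while ELOVL6 rose in the BPCa lines and fell in the LPCa lines. The rise of ELOVL6 did not pass against RANKL mono-culture in either BPCa line. Of these 7, IDI1 was lower by more in DU145 than in the BPCa lines and by less in 22Rv1 (−0.29), and NSDHL fell in DU145 and did not pass in 22Rv1 (−0.23). The 2 were FASN (−0.34 ± 0.088) and SREBF1 (−0.41 ± 0.082), for which the mean of the LPCa lines joins −0.17 in DU145, close to the −0.24 of C4-2B, and 0.34 in 22Rv1. Nor did the fall of FASN pass against RANKL mono-culture in either BPCa line. INSIG1 (−0.02 ± 0.14), SCD (0.04 ± 0.16) and FADS2 (0.03 ± 0.075) did not pass. Without replicate 2 of DU145 with MG63 cells 10 genes were higher and 2 lower, and without replicate 1 12 were higher and 8 lower. No gene passed for the RAW264.7 comparison, where 0.0781% of all genes did, with 4 genes, and 6.65% of all genes, at an unadjusted p under 0.05 by edgeR and 0 at the adjusted p of DESeq2.

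For RANKL against mono-culture, a difference added after the changes in each line had been seen, 19 genes had a lower change in BPCa lines and 1, ELOVL6 (0.85 ± 0.14), a higher one, where 9.55% and 6.99% of all genes passed. Among the 19, the differences were largest in INSIG1 (−1.18 ± 0.14), SCD (−1.05 ± 0.14), FADS2 (−0.90 ± 0.072) and FASN (−0.84 ± 0.085). That of SREBF1 (−0.45 ± 0.096) set a mean of 2 falls in BPCa lines against a mean of −0.66 in DU145 and 0.66 in 22Rv1, which do not resemble each other. With any single library left out, 19 or 20 genes passed.

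**Figure D5:**
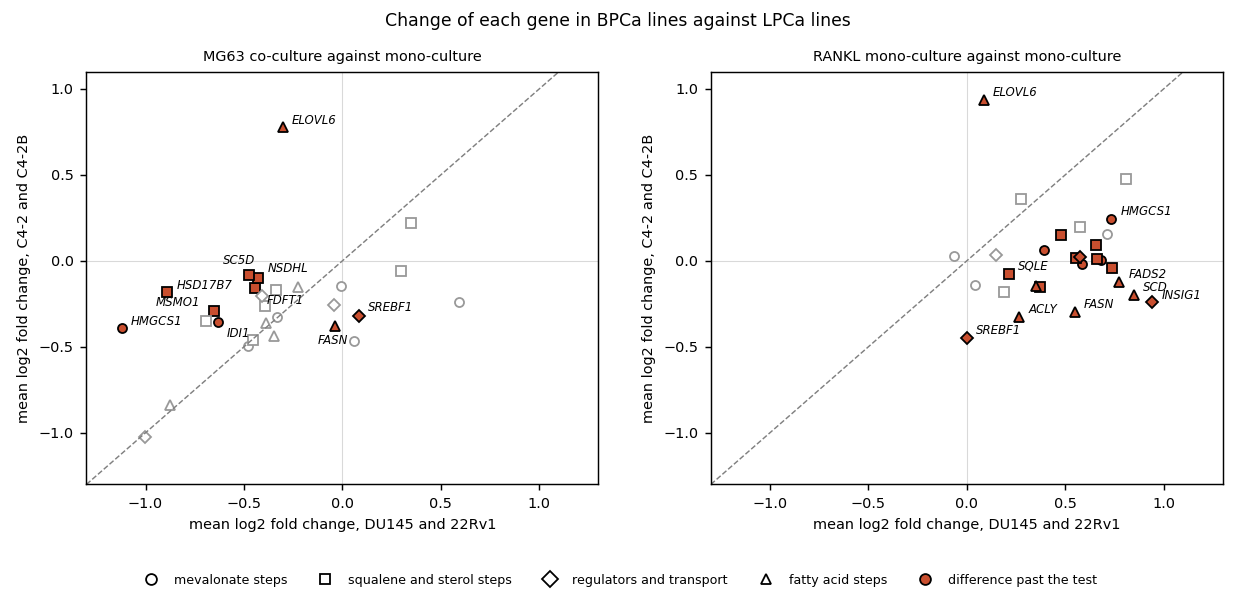
Mean log2 fold change of each gene in C4-2 and C4-2B (y axis) against that in DU145 and 22Rv1 (x axis), for MG63 co-culture (left) and RANKL mono-culture (right) against mono-culture; the dashed line marks equal change, filled points passed the test of the difference, and names are given for all of these at left and for 9 of the 20 at right. HMGCS1 (0.73) and ELOVL6 (1.08) lie farthest above the dashed line for MG63, and every filled point but ELOVL6 lies below it for RANKL.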

How the data were processed

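Poly-A RNA of 36 cultures was sequenced in strand-specific libraries (MGIEasy, DNBSEQ-G400). The authors deposited a table of estimated counts per transcript, made with kallisto after FastQC; the submitters' processing notes name hg19. The values are in the scaled TPM form of tximport: multiplied by GENCODE 29 transcript lengths, 76.5% to 82.6% of low values (up to 5) of genes with 1 transcript in a library came out as whole multiples of 1 constant (tolerance 0.05), where chance gives 10%. The 159837 transcripts (2491 repeated lines with identical values were used once) were summed to 27852 genes, and transcripts without a symbol, 0.526% to 0.764% of a library, were left out. Levels are values per 1000000 of the library total (TPM).

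A gene entered a fit when 1 of its libraries reached 100 counts. Values were rounded, and edgeR 4.0.16 (R 4.3.3) gave TMM factors and the quasi-likelihood test, with Benjamini-Hochberg adjustment. The 20 libraries without RANKL were fitted together (13437 genes), likewise the 16 with RANKL (11525), and RANKL mono-cultures were compared with other cultures in the fit of all 36 (13454). limma 3.58.1 on log2(TPM + 1) and DESeq2 1.42.0 were alternatives. On simulated counts for DU145 with and without MG63 cells, edgeR recovered 83 of 100 genes changed by 1 and 93 of 100 changed by 2 (log2), with 14 false calls among 13310 genes. The simulated libraries had the spread of the fit of 20 libraries and none that stood apart. Recovery and false calls with such a library were therefore not tested. Replicate numbers did not pair the samples (correlations of deviations −0.056 to 0.066).

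The genes, the related lists and the comparisons were chosen with earlier results of these data known, and the test of the RANKL difference between phenotypes was added after values had been seen. The oxidation list and the prostate markers each held 1 more gene, which is not reported here and is in none of their counts. Values in every library are given for the genes called most often over 12 culture comparisons, and for INSIG1, SREBF1, SREBF2, SQLE, FASN and SCD. Exons of 15 of the 28 genes overlap another gene, among them FADS1 and FADS2 with each other, and 5 genes (FDPS, CYP51A1, HSD17B7, SCD and FADS2) have named pseudogenes, so that reads of these genes may have been divided. Promoters were read from RefSeq (GRCh38.p14), and 24 of the 28 genes are described. Python 3.11.15, numpy 2.4.6, pandas 2.3.3 and matplotlib 3.10.9 were used.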

Additional observations from a re-analysis of the deposited data

Results flagged for a closer look

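The response of a gene differed between the BPCa and LPCa lines, by the test of the difference itself (edgeR, adjusted over all genes), for 10 genes with MG63 cells and 20 with RANKL. The differences, BPCa less LPCa in log2, rest on 2 lines a phenotype. No group had the 4 libraries that the search for outlying libraries needs.

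With MG63 cells the difference was 0.73 in HMGCS1, 0.28 in IDI1, 0.29 in FDFT1, 0.36 in MSMO1, 0.33 in NSDHL, 0.71 in HSD17B7 and 0.39 in SC5D, genes of the mevalonate and sterol steps. It was 1.08 in ELOVL6, −0.34 in FASN and −0.41 in SREBF1. The changes of ELOVL6 and FASN in the BPCa lines did not pass against RANKL mono-culture. HMGCS1, IDI1, FDFT1, MSMO1, SREBF1 and ELOVL6 stayed called whichever library was left out, and NSDHL, HSD17B7, SC5D and FASN did not.

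With RANKL the difference was −0.49 in HMGCS1, −0.67 in MVK, −0.33 in IDI1 and −0.61 in FDPS among the mevalonate genes. Among the sterol genes it was −0.54 in FDFT1, −0.29 in SQLE, −0.78 in LSS, −0.56 in CYP51A1, −0.65 in MSMO1, −0.33 in NSDHL and −0.52 in DHCR7. It was −1.18 in INSIG1, −0.45 in SREBF1 and −0.55 in STARD4, the regulators and carriers. Among the fatty acid genes it was −0.59 in ACLY, −0.84 in FASN, −1.05 in SCD, −0.50 in FADS1 and −0.90 in FADS2, and 0.85 in ELOVL6. SQLE was the 1 gene of these that lost its call when a library was left out. KRT8, KRT18 and EPCAM in DU145 and KLK3 and KRT18 in 22Rv1 moved with the same RANKL libraries, and their part was not tested.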

How the results depend on the processing

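Depth went with every comparison to mono-cultures without RANKL, and 2 libraries a group limit the counts. The number of genes called stayed within 1.5 times of the reported one in all 22 comparisons without a filter, with library size or RLE factors in place of TMM, with thinned libraries, with limma, and with recovered reads (the last 2 chosen after seeing the data), and with DESeq2 in all but DU145 with RAW264.7 cells (2). Library size in place of TMM shifted the median of all genes by −0.109 in C4-2 and −0.107 in 22Rv1 with MG63 cells and by −0.103 in DU145 with RANKL. Fits of only the groups compared called 17 in C4-2B and 0 in DU145 with MG63 cells, 10 in C4-2 and 13 in C4-2B with RANKL, and 0 in DU145 with MG63 cells against RANKL mono-culture. Of all genes they called, in the same order, 1125 higher and 1206 lower of 11353, 8 and 0 of 11868, 2139 and 1793 of 11267, 1633 and 1561 of 11348, and 2 and 5 of 10097. The cause was not tested. A fold above 2 with an unadjusted p under 0.05 gave 1, 0, 5 and 0 genes with MG63 cells (2.61%, 2.4%, 4.48% and 2.67% of all genes), 1, 0, 2 and 3 with RANKL (3.05%, 3.21%, 5.83% and 2.98%), and 1, 0, 12 and 7 with MG63 cells against RANKL mono-culture (3.17%, 3.13%, 7.58% and 3.6%) in C4-2, C4-2B, DU145 and 22Rv1. It gave 12 between phenotypes (30%), 0 between C4-2B and C4-2 (3.04%), 5 between DU145 and 22Rv1 (39.7%), and 1 and 2 for the differences in response to MG63 cells (2.68%) and to RANKL (3.4%).

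With RANKL mono-cultures as the control, 6 genes were called in C4-2B and 23 in 22Rv1. Among genes that passed the test against either control, the direction turned in C4-2 for ELOVL6 (−0.28), SREBF1 (0.031) and TM7SF2 (−0.60), in C4-2B for ELOVL6 (−0.063), in DU145 for SREBF1 (0.53), and in 22Rv1 for FADS1 (−0.53), FDPS (−0.37), SREBF1 (−0.32) and TM7SF2 (−0.26). With recovered reads SREBF2 in DU145 with MG63 cells was −0.23.

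With any single library left out, the counts were 6 to 11 in C4-2, 5 to 10 in C4-2B, 19 to 24 in DU145 and 7 to 13 in 22Rv1 with MG63 cells, and 7 to 9, 1 to 2, 25 to 25 and 19 to 20 against RANKL mono-culture. With RANKL they were 4 to 6, 1 to 5, 15 to 18 and 17 to 21, and for the MG63 difference between phenotypes 7 to 20, the highest without replicate 1 of DU145 with MG63 cells. In DU145 with MG63 cells, the values without replicate 2 and without replicate 1 were −0.37 and 0.27 for FDPS, −0.46 and 0.35 for TM7SF2, −0.31 and 1.2 for EBP, −0.56 and 0.82 for MVD, −0.14 and 1.89 for PMVK, and −0.30 and 0.42 for SREBF2, and against RANKL mono-culture −0.89 and 0.68 for EBP, −0.026 and 2.07 for PMVK, and −0.17 and 0.61 for SREBF2. Counts between the lines in mono-culture, and those for the RANKL difference, stayed within 1.5 times of the reported ones.

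The replicate block changed no count by over 1.5 times: it called 11, 8, 20 and 14 genes with MG63 cells in C4-2, C4-2B, DU145 and 22Rv1 and 6, 4, 19 and 23 with RANKL, and the numbers do not pair the samples.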
